A study of Rattus norvegicus with 8 samples.

Results

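The receptors of the interleukin-6 (IL-6) family and the JAK-STAT3 pathway behind them were followed through 10 genes in the spinal cord of stressed and control rats. They were the shared receptor chain gp130 (Il6st), the receptor subunits Il6r, Lifr, Osmr and Cntfr, the kinases Jak1, Jak2 and Tyk2, the transcription factor Stat3 and its feedback inhibitor Socs3. The genes were taken by name, and 8 of the 10 names were found, with 1 probe each, among the 26514 different names and 30367 different probes of the array. Il6r was carried under the name Il6ra and was matched through its RefSeq accession, so that it stands outside the 8 genes counted below. No probe was matched to Tyk2, which was not analysed here.

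Male Wistar rats aged 12 weeks were exposed to chronic water avoidance (WA) stress or served as controls, with 4 rats in each group and 1 array per rat. Over 10 days, stressed rats spent a daily session of 1 h on a small platform in a water-filled cage, and the lumbar L6S1 spinal segments were taken on day 11, 24 h after the last one. RNA came from whole segments freed of meninges, so that neurons, glia and vessels were measured together. In such bulk tissue, fewer cells of a type and less RNA per cell cannot be told apart.

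Cytokines of the IL-6 family, such as IL-6, leukemia inhibitory factor, oncostatin M and ciliary neurotrophic factor, all signal through gp130. Each binds its own receptor subunit, which joins with gp130 and brings together kinases of the JAK family, and these phosphorylate STAT3, which then enters the nucleus and switches on target genes. SOCS3 is one of those targets and shuts the receptor down again. In the spinal cord the pathway is best known in reactive astrocytes, where STAT3 drives the filament protein GFAP.

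Signals are given as log2 of the processed fluorescence with the 75th percentile of that array subtracted, so that a spot at this percentile has the value 0, and differences are stressed minus control on this scale. Only probes well above background on 4 or more of the 8 arrays, 23678 in all, entered the tests. The mean of this percentile was 2156 ± 228 (SD, n = 4) for control arrays and 1871 ± 87.1 (SD, n = 4) for stressed arrays, and 23005 to 24066 probes per array were well above background. All stressed rats lay in one row of the slide and all control rats in the other, so that row and group cannot be told apart. Of the arrays, 3 stood apart from their group. Control replicate 2 lay at 46.1 on the first principal component, beyond the stressed rats (8.23 to 34.5), whereas the other 3 control rats lay between -56.2 and -39.4. Its median 5′ minus 3′ difference along transcripts, a measure of how signal is spread along mRNAs, was 0.22. This value was 0.09 to 0.17 in stressed rats and -0.30 to -0.18 in the other controls. Without control replicate 2, the 5′ minus 3′ value and the group therefore cannot be told apart. When this value is added to the model as a covariate, the result for any gene rests largely on control replicate 2. Some Hox genes of the lumbosacral cord also set stressed replicates 2 and 3 apart. Hoxc11 lay at -2.59 and -5.09 in these rats, 0.00 and 0.03 in stressed replicates 1 and 4, and -0.55 to -0.23 in the controls. Hoxc12 was likewise at -9.06 and -8.97 in stressed replicates 2 and 3 and at -7.51 or above in the other rats. Those low values lie below the ones of Il6 in the same rats (-7.94 and -8.41), whose probe was not well above background. Hoxa10, Hoxd9 and Hoxd10 were also lowest in stressed replicates 2 and 3. The posterior genes Hoxc13 and Hoxd12 did not set them apart as low, and Hoxa13 did so for stressed replicate 3 only. Hoxa13 was at -6.58 and -7.50, against -6.91 to -5.86 in the other rats. Hoxc13 was at -6.43 and -6.57, against -6.81 to -5.82 in the other rats. Hoxd12 was at -4.88 and -4.79, against -5.42 to -4.89. Counts of called genes among the 8 are given with and without these 3 arrays, but single named genes are not all given in each of these sets. Without control replicate 2, 42.4% of all tested probes had an adjusted p below 0.1 (limma). That share applies wherever a single gene is given for that set.

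Each value rests on 60-base probes, whose positions the files give on the rn4 assembly. Of the 5 receptor genes, 4 lie on chromosome 2, and the probes of Osmr and Lifr are 396344 bases apart on opposite strands. For Il6st a second probe, named in the files only by its transcript, lies 8243 bases further along the same strand than the named one. The first 30 bases of both are shown because only the first of the pair gave a signal. The whole probes of Jak1, Jak2, Lifr and Socs3 are shown as well, and those of the other genes, Stat3 included, are not. All are written 5′ to 3′. Whether a probe lies in a coding exon or a UTR was not analysed here.
Il6st (chr2:43834062-43834121, plus strand): cttcagatgggaaataatcttcagtccctg
Il6st, second probe (chr2:43842305-43842364, plus strand): aaagatggccactgaaaactggaccaacag
Lifr (chr2:56477054-56477113, plus strand): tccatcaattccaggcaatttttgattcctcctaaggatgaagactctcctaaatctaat
Jak1 (chr5:121805280-121805339, minus strand): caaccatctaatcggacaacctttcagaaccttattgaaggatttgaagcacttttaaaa
Jak2 (chr1:232974483-232974542, plus strand): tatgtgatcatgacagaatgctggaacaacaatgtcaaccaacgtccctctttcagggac
Socs3 (chr10:107958636-107958695, minus strand): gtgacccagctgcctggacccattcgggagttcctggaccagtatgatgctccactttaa

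Among the 8 genes, Jak1 rose in stressed rats and no gene fell at an adjusted p below 0.1 (limma). This was 12.5% of the genes, against 3.74% of all tested probes, of which 2.77% rose and 0.971% fell. At 3 of the 8 genes the groups had no overlap, against 12.1% of all tested probes. Il6st and Stat3 were lower in every stressed rat than in any control rat, as were 5.44% of all tested probes, and Jak1 was higher, as were 6.65%. The same 3 genes had an unadjusted p below 0.05, a mark that 20.3% of all tested probes reached (6.67% with a lower and 13.6% with a higher mean). The means of 4 genes were higher and of 4 lower in stressed rats, against 40.4% lower among all tested probes, and the median difference was 0.16, against 0.06 for all tested probes.

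**Figure D1:**
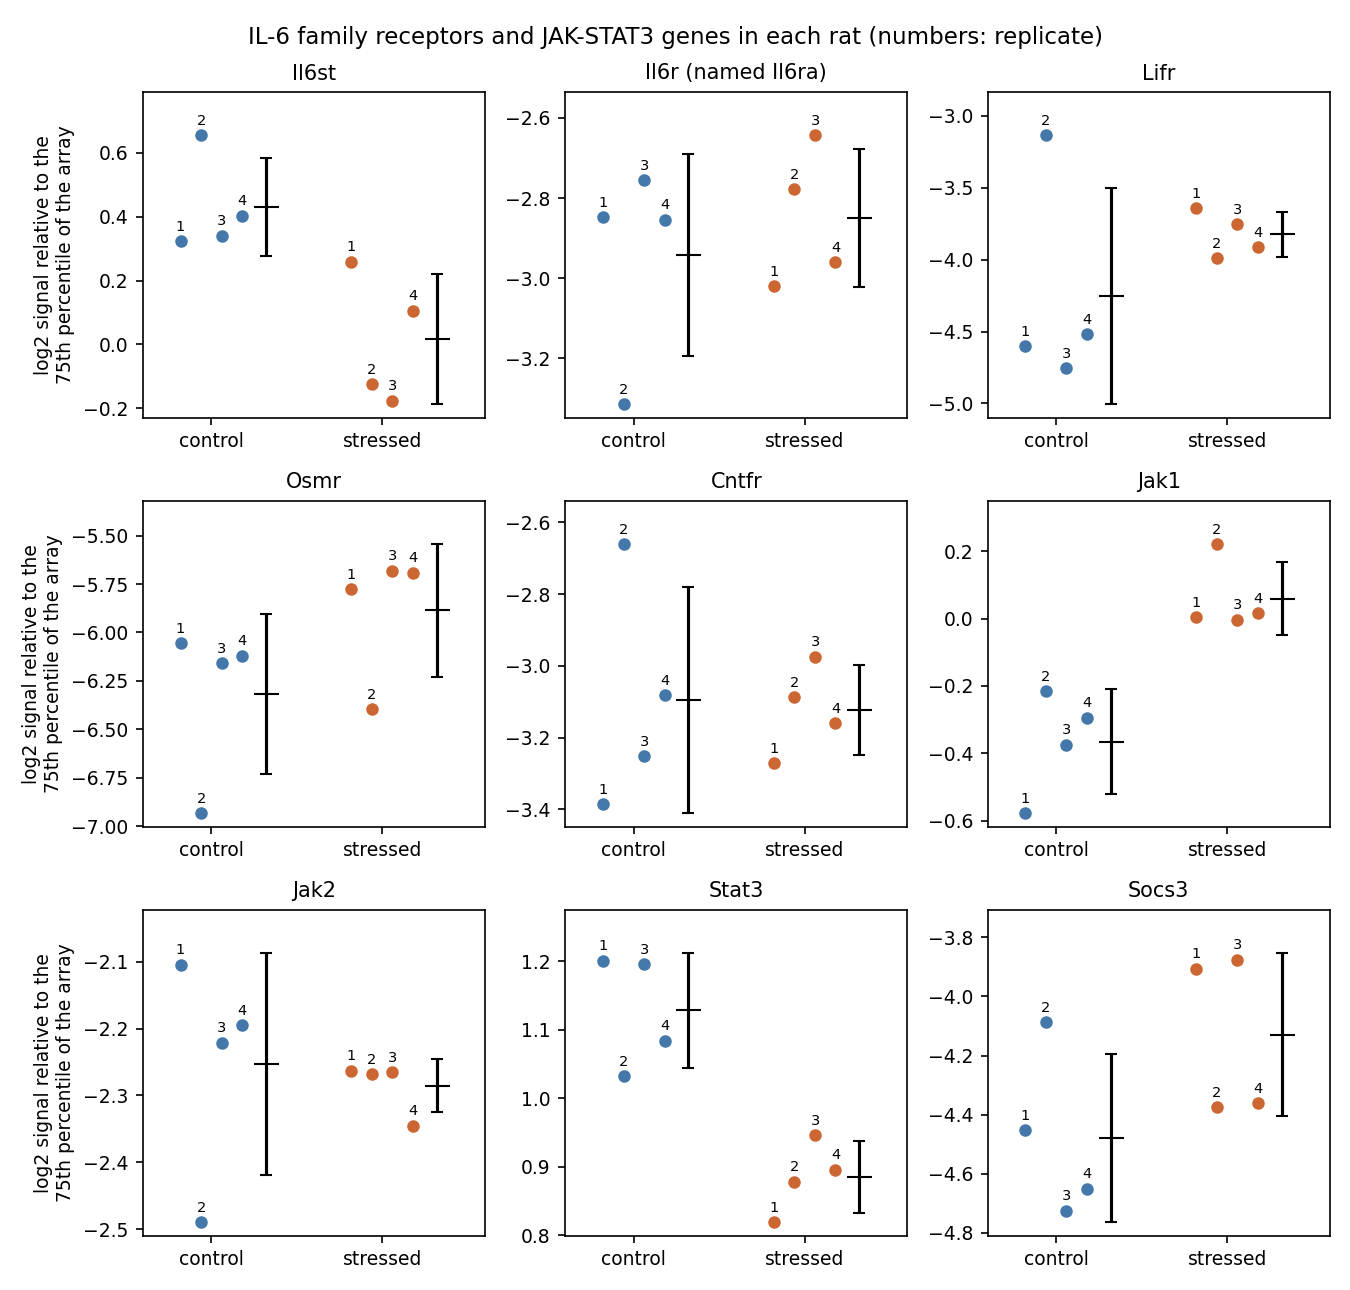
Scaled log2 signal (vertical axes, each with its own range; 0 is the 75th percentile of an array) in the 4 control rats (blue) and 4 stressed rats (orange) for the 9 genes tested, with replicate numbers beside the points and the group mean ± SD as a black bar. The groups are apart for Il6st, Jak1 and Stat3, and control replicate 2 lies far from the other controls for Lifr and Osmr.

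gp130, the chain that every cytokine of the family needs, was lower in stressed rats, but the difference did not pass the adjusted threshold. The Il6st signal was 0.26, -0.12, -0.18 and 0.11 in stressed replicates 1 to 4 and 0.32, 0.66, 0.34 and 0.40 in control replicates 1 to 4. All 4 stressed rats were below all controls, by as little as the gap between stressed replicate 1 and control replicate 1. The mean was 0.02 ± 0.20 (SD, n = 4) against 0.43 ± 0.15 (SD, n = 4), a difference of -0.42 (SE 0.12, 95% interval -0.70 to -0.13) or 1.33-fold. With limma the adjusted p was 0.144, and the exact permutation test gave p = 0.0286, the smallest that 4 against 4 rats allows. By p, Il6st stood at place 1729 of the 23678 probes.

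The 2 stressed rats lowest in Il6st were replicates 2 and 3, which were also those low in Hoxc11. Without them the difference was -0.25 (limma, adjusted p = 0.592), and without control replicate 2 as well it was -0.17 (limma, adjusted p = 0.188). Their part in the result was not tested. Without control replicate 2 alone, the highest of the controls, the difference was -0.34 and passed the threshold (limma, adjusted p = 0.060). Il6st has 1 spot on each array, so that no repeat of the measurement within an array was available. The second probe was well above background on 0 of 8 arrays, with a processed signal of 2.70 to 3.46, and gives no second reading of the gene.

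The receptor subunits that pair with gp130 showed no difference that passed the threshold on all 8 arrays. The LIF receptor, Lifr, lay at -3.64, -3.99, -3.75 and -3.91 in stressed replicates 1 to 4 and at -4.60, -3.13, -4.75 and -4.52 in control replicates 1 to 4. All stressed rats lay above 3 of the controls and below control replicate 2. The difference of 0.43 (SE 0.34) was well within this spread (limma, adjusted p = 0.487), and its 95% interval ran from -0.36 to 1.21. Without control replicate 2 it was 0.80 (SE 0.10), or higher in each of 4 stressed rats than in each of 3 controls (limma, adjusted p = 0.002). In that set 42.4% of all tested probes were called, and the share of probes without overlap was not counted.

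The direction for Lifr turned under 1 of the 20 other settings tried. When the 5′ minus 3′ value was added to the model, the Lifr difference was -0.42 (limma, adjusted p = 0.110). Il6st kept its sign under that covariate, at -0.58 (limma, adjusted p = 0.077). Control replicate 2, on which a fit with the covariate largely rests, was the highest control for both genes. The probe of Lifr has 1 spot on each array.

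The oncostatin M receptor, Osmr, was well above background on 4 stressed and 3 control arrays. It lay at -5.78, -6.40, -5.68 and -5.69 in stressed replicates 1 to 4 and at -6.06, -6.93, -6.16 and -6.12 in control replicates 1 to 4. Replicate 2 was the lowest of both groups, and the other 3 stressed rats were above all controls. The difference was 0.43 (SE 0.24, 95% interval -0.13 to 0.99) and did not pass (limma, adjusted p = 0.340). Without control replicate 2, where the probe was not well above background, it was 0.22 (limma, adjusted p = 0.377).

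The subunits for IL-6 itself and for ciliary neurotrophic factor, which bind the cytokine but lack a signalling tail, differed little between the groups. Il6r, under the name Il6ra, lay between -3.02 and -2.64 in stressed rats and between -3.31 and -2.76 in controls, and the groups overlapped. Its difference of 0.09 (SE 0.14) had a 95% interval of -0.24 to 0.43 (limma, adjusted p = 0.726). This probe has 10 spots per array, and their SD within an array was at most 0.08, less than the SD of 0.25 between control rats. Cntfr lay between -3.27 and -2.97 in stressed rats and between -3.39 and -2.66 in controls, with a difference of -0.03 (SE 0.16, 95% interval -0.39 to 0.34) and an adjusted p of 0.931 in limma. Both signs turned without control replicate 2, to -0.03 for Il6r and 0.12 for Cntfr.

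Jak1, the kinase that gp130 depends on most, was the gene that rose. Its signal was 0.00, 0.22, 0.00 and 0.02 in stressed replicates 1 to 4 and -0.58, -0.22, -0.37 and -0.29 in control replicates 1 to 4. Every stressed rat was above every control. The mean was 0.06 ± 0.11 (SD, n = 4) against -0.37 ± 0.16 (SD, n = 4), a difference of 0.43 (SE 0.10, 95% interval 0.19 to 0.66) or 1.34-fold. The adjusted p was 0.092 with limma, at place 729 of 23678 probes, and p = 0.0286 with the exact permutation test.

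This call was near the threshold. It was lost when any array other than control replicate 2 was left out, with differences of 0.35 to 0.45. In those sets 0.00% to 0.304% of all tested probes were called. The Jak1 call was kept without control replicate 2, with a difference of 0.48 (limma, adjusted p = 0.010). That set had 42.4% of all tested probes called. With the 5′ minus 3′ covariate the difference was 0.29 (limma, adjusted p = 0.173). Before scaling, the processed signal of Jak1 was 1760 to 2180 in stressed and 1430 to 1900 in control rats, and the groups overlapped. The 75th percentile by which they were scaled was 1750 to 1940 in stressed and 1840 to 2330 in control rats. Its mean was lower in stressed rats (exact permutation test, p = 0.114), and scaling by it widened the Jak1 difference. After quantile normalization the difference was 0.42 (limma, adjusted p = 0.076).

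Jak2, the kinase that shares the gp130 receptor with Jak1, had a difference close to 0. It lay at -2.26, -2.27, -2.27 and -2.35 in stressed replicates 1 to 4 and at -2.10, -2.49, -2.22 and -2.20 in control replicates 1 to 4. The stressed rats fell within the range of the controls. The difference was -0.03 (SE 0.09) with a 95% interval of -0.25 to 0.18 (limma, adjusted p = 0.855). This interval ends below the lower bound for Jak1, and the difference between the kinases itself was not tested.

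Stat3, the transcription factor that the kinases activate, had a smaller difference than Il6st but also less spread. The signal was 0.82, 0.88, 0.95 and 0.90 in stressed replicates 1 to 4 and 1.20, 1.03, 1.20 and 1.08 in control replicates 1 to 4. All stressed rats were below all controls. The mean was 0.88 ± 0.05 (SD, n = 4) against 1.13 ± 0.08 (SD, n = 4), a difference of -0.24 (SE 0.07, 95% interval -0.41 to -0.08) or 1.18-fold. It did not pass the threshold (limma, adjusted p = 0.136), and the exact permutation test gave p = 0.0286.

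Stat3 was lower in stressed rats under each of the 20 other settings tried, by -0.30 to -0.16. Leaving out control replicate 2, the lowest of the controls, gave -0.28 and passed (limma, adjusted p = 0.014). Leaving out stressed replicates 2 and 3 gave -0.27 (limma, adjusted p = 0.524). Before scaling, the processed signal was 3090 to 3710 in stressed and 3760 to 5290 in control rats, and the groups did not overlap. The probe has 1 spot on each array and measures the mRNA, not the phosphorylated protein through which STAT3 acts.

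**Figure D2:**
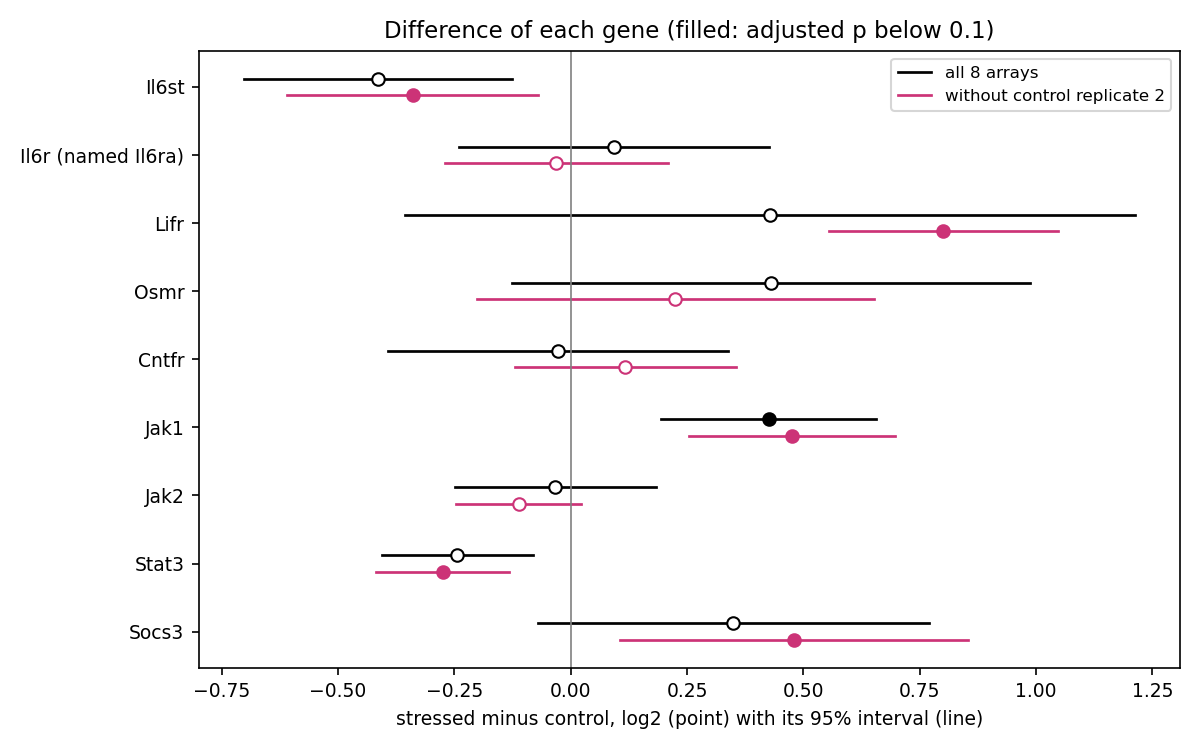
Stressed minus control on the log2 scale (points) with the 95% interval from limma (lines) for the 9 genes tested, on all 8 arrays (black) and without control replicate 2 (magenta), filled where the adjusted p was below 0.1. On all 8 arrays Jak1 alone is filled, at 0.43, and without control replicate 2 Il6st (-0.34), Lifr (0.80), Jak1 (0.48), Stat3 (-0.28) and Socs3 (0.48) are.

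Socs3, the inhibitor that STAT3 induces and that binds gp130, was higher in stressed rats on average, but the groups overlapped. It lay at -3.91, -4.37, -3.88 and -4.36 in stressed replicates 1 to 4 and at -4.45, -4.09, -4.72 and -4.65 in control replicates 1 to 4. Stressed rats were all above 3 of the controls, and control replicate 2 was above stressed replicates 2 and 4. The difference was 0.35 (SE 0.18, 95% interval -0.07 to 0.77) and did not pass (limma, adjusted p = 0.312). It was 0.48 without control replicate 2 (limma, adjusted p = 0.056) and 0.04 with the 5′ minus 3′ covariate (limma, adjusted p = 0.922). Its pair of spots differed within an array by an SD with a median of 0.15 over the arrays and a highest value of 0.49.

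Leaving out control replicate 2 thus raised the called genes from 1 to 5 of 8, with Jak1, Lifr and Socs3 higher and Il6st and Stat3 lower. The same step raised the called probes on the whole array to 42.4%. In that set the 5′ minus 3′ value and the group cannot be told apart. With array weights from limma, under which control replicate 2 had a weight of 0.11, these 5 genes were called as well, against 50.6% of all tested probes. Without stressed replicates 2 and 3, 0 of the 8 genes and 0 of all tested probes passed in limma, with 2 of the genes and 2158 of the probes at an unadjusted p below 0.05. Without all 3 arrays, 4 of the 8 genes passed, against 28.1% of all tested probes.

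**Figure D3:**
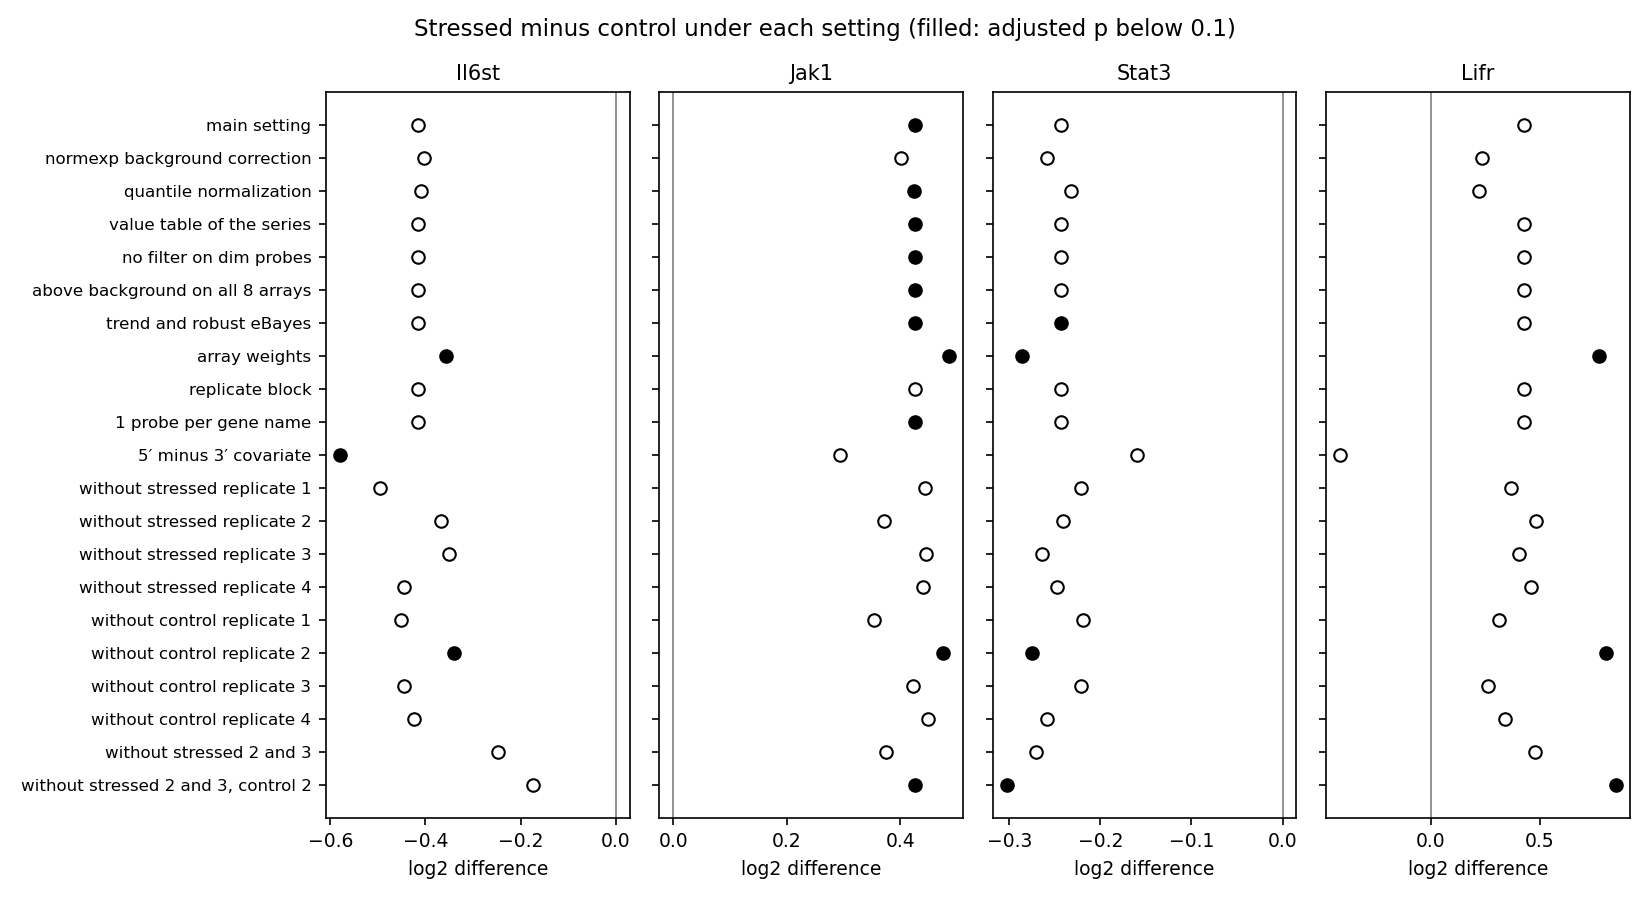
Log2 difference, stressed minus control (horizontal axes, scaled separately), of Il6st, Jak1, Stat3 and Lifr under each setting (rows), filled where the adjusted p was below 0.1. Il6st, Jak1 and Stat3 keep their sign in every row, and Lifr turns to -0.42 with the 5′ minus 3′ covariate.

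The rest of the pathway was covered by 66 genes in 6 lists, of which 63 had a probe and 58 were tested. Of these 58, 2 rose and none fell in limma at an adjusted p below 0.1, against 3.74% of all tested probes called. At an unadjusted p below 0.05, 9 were higher and 2 lower, a mark that 20.3% of all tested probes reached. The median difference was 0.04, against 0.06 for all tested probes. Without control replicate 2, 17 rose and 3 fell, against 42.4% of all tested probes called. The 2 that rose on all 8 arrays were Socs4 and Mcl1. No call was left in these lists when any one of the other 7 arrays was left out. In those sets 0.00% to 0.304% of all tested probes were called.

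**Figure D4:**
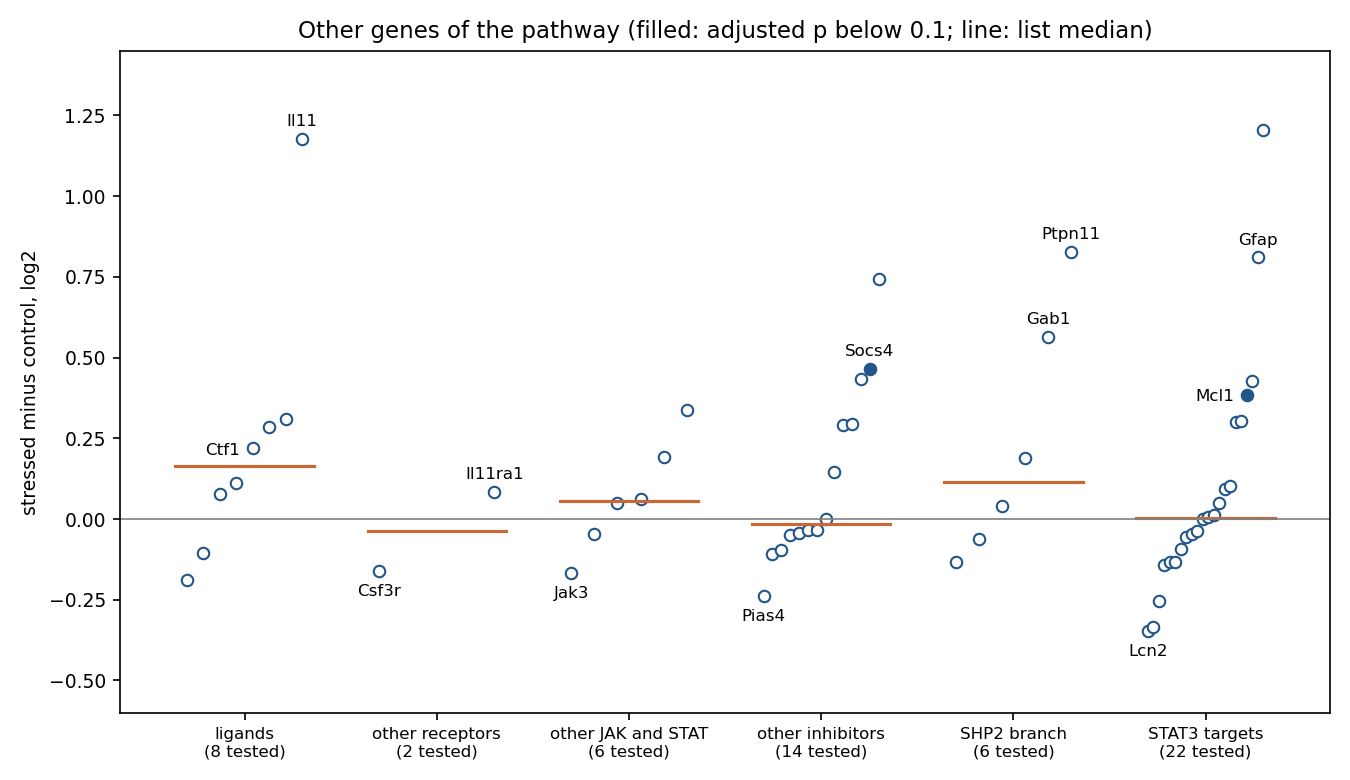
Log2 difference, stressed minus control (vertical axis), of each tested gene in 6 lists of the pathway, with the list median as an orange line and filled points where the adjusted p was below 0.1. Socs4 (0.46) and Mcl1 (0.38) are filled, and the list medians lie between -0.04 and 0.16.

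Among the cytokines of the family, 6 of the 8 tested genes had a higher and 2 a lower mean in stressed rats, none past the threshold, with a median of 0.16. Il6 was well above background on 0 of 8 arrays. Il11, a cytokine that signals through gp130, lay at -3.03, -4.40, -3.27 and -3.92 in stressed replicates 1 to 4 and at -4.56, -3.82, -5.27 and -5.69 in control replicates 1 to 4. Apart from control replicate 2, every control was below every stressed rat. The difference of 1.18 (SE 0.45) did not pass (limma, adjusted p = 0.212), and it was 1.52 without that array (limma, adjusted p = 0.027). Ctf1, which encodes cardiotrophin-1, had a difference of 0.22 (limma, adjusted p = 0.335). With the 5′ minus 3′ covariate the median over the 8 cytokine genes was -0.03 and none passed, against 10.1% of all tested probes.

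None of the 2 other receptors and 6 other JAK and STAT genes tested passed, with median differences of -0.04 and 0.06. Il11ra1, the receptor subunit for IL-11, differed by 0.08 (limma, adjusted p = 0.534), and Csf3r, the receptor of granulocyte colony-stimulating factor, by -0.16 (limma, adjusted p = 0.434). Jak3, the kinase of cytokine receptors on lymphocytes, differed by -0.17 (limma, adjusted p = 0.337).

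Of the 14 other inhibitors, 7 had a higher and 7 a lower mean, and Socs4 rose. Socs4 is a SOCS protein better known for action on growth factor receptors. It was -3.18 to -2.94 in stressed and -3.82 to -3.37 in control rats. All stressed rats were above all controls, as for 6.65% of all tested probes. The Socs4 difference was 0.46 (SE 0.11, limma, adjusted p = 0.094). Pias4, a SUMO ligase that restrains STAT proteins, was lower in all stressed rats, as were 5.44% of all tested probes. It lay at -0.10 to 0.05 against 0.12 to 0.33. Its difference of -0.24 (SE 0.07) did not pass (limma, adjusted p = 0.152).

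The branch from gp130 to the MAP kinases runs through the phosphatase SHP2, encoded by Ptpn11, and the adaptor Gab1. Ptpn11 lay at -1.97, -2.23, -2.10 and -2.42 in stressed replicates 1 to 4 and at -3.36, -2.07, -3.40 and -3.19 in control replicates 1 to 4. Control replicate 2 lay among the stressed rats and the other controls well below them. The difference was 0.83 (SE 0.29, limma, adjusted p = 0.189) on all arrays and 1.14 without control replicate 2 (limma, adjusted p = 0.001). Gab1 had a difference of 0.56 (SE 0.24, limma, adjusted p = 0.240). It was 0.81 without control replicate 2 (limma, adjusted p = 0.003) and -0.01 with the 5′ minus 3′ covariate. Under that covariate the median of the 6 genes tested in this branch was 0.01, against 0.11 without it. With the covariate 0 of them were called higher and 1 lower, against 10.1% of all tested probes called.

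Of the 22 known targets of STAT3 that were tested, 11 had a higher and 11 a lower mean, with a median of 0.00. Mcl1, which protects cells from apoptosis, rose by 0.38 (SE 0.09, limma, adjusted p = 0.094), from -2.83 to -2.54 in control rats to -2.44 to -2.21 in stressed rats. Lcn2, the secreted siderophore-binding protein lipocalin 2, was lower in all stressed rats, as were 5.44% of all tested probes. It lay at -3.82 to -3.44 against -3.39 to -3.13. Its difference of -0.35 (SE 0.11) did not pass (limma, adjusted p = 0.152). These targets were listed from general knowledge of many tissues, and their control by STAT3 in the spinal cord was not measured.

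Gfap, the astrocyte filament gene that STAT3 activates, lay at 1.31, 1.76, 2.37 and 1.07 in stressed replicates 1 to 4 and at 0.25, 1.99, 0.38 and 0.64 in control replicates 1 to 4. Control replicate 2 was higher than 3 of the 4 stressed rats. The difference was 0.81 (SE 0.43) and did not pass (limma, adjusted p = 0.322). It was 1.20 without that array (limma, adjusted p = 0.023) and -0.14 with the 5′ minus 3′ covariate. Of the 10 astrocyte markers, Gfap included, none passed on all 8 arrays. Their summed signal was 286 to 338 times the 75th percentile in stressed and 244 to 303 times in control rats (exact permutation test, p = 0.086). The sum is of linear signals, and Aldoc, the brightest of the 10, makes up most of it.

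Markers of the other cells in the tissue were set beside these values, with sums on the same scale. Bright genes weigh most in such sums, and Mbp makes up most of that of oligodendrocytes. All 10 microglial markers were detected and none passed, with a median difference of 0.00 and sums of 15.7 to 18.7 in stressed and 16.5 to 19.2 in control rats. Of the 8 markers of oligodendrocytes, 7 were higher and Mog, a myelin surface protein, rose by 0.90 (limma, adjusted p = 0.072), while their sum was 251 to 346 in stressed and 229 to 338 in control rats. All 8 endothelial markers had a higher mean, with sums of 11.4 to 13.5 against 10.5 to 11.7. Pecam1, a junction protein of vessels, rose by 0.40 (limma, adjusted p = 0.093). With the 5′ minus 3′ covariate, neither the oligodendrocyte nor the endothelial list held a call, and their medians were -0.02 and -0.07. Neither held a call without stressed replicates 2 and 3, where no probe passed. Without control replicate 2, 5 oligodendrocyte and 4 endothelial markers rose, against 42.4% of all tested probes called. The 6 Schwann cell markers, from the nerve roots, all had a lower mean and none passed, and their sum was 10.1 to 25.6 in stressed and 11.1 to 76.4 in control rats. The 8 markers of meninges and fibroblasts also all had a lower mean and none passed, with sums of 3.55 to 7.71 against 3.52 to 9.93. None of the 10 neuronal, 5 motor neuron and 4 red blood cell markers tested passed, with median differences of 0.04, -0.19 and -0.07. The 4 lumbosacral Hox genes tested all had a lower mean and none passed. Of the 6 T cell markers, 3 were tested and none passed. Among these, 2 had a higher and 1 a lower mean, with a median difference of 0.27. Without control replicate 2, 2 of them rose, against 42.4% of all tested probes called. Cd3e, Cd8a and Cd2 were well above background on 0 of 8 arrays. The part of the cell mixture in the differences of Il6st, Jak1 and Stat3 was not tested.

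The genes whose signal followed Il6st most closely over the 8 arrays, among 13383 other gene symbols, were Tk2 (Pearson r = 0.990), Ppme1 (0.988), Ecel1 (0.982), Rimbp2 (0.979) and Chrm3 (0.974). Tk2 encodes mitochondrial thymidine kinase and Chrm3 a muscarinic acetylcholine receptor. Those closest to Stat3 were Dab2 (0.978), Hnrpm (0.978), Akap1 (0.976), Cdk105 (0.974) and Cdkn2b (0.973). Dab2 encodes an endocytic adaptor and Cdkn2b an inhibitor of the cell cycle. All 10 genes had a lower mean in stressed rats, by -0.14 to -0.55. The 8 arrays share the difference between the groups and the arrays that stand apart, so these values describe likeness only.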

How the data were processed

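Lumbar L6S1 cord RNA from 4 stressed and 4 control rats was hybridised to Agilent 1-colour arrays, 1 per rat. Per the file headers, the deposited intensity values come from Agilent Feature Extraction 10.7.3.1, which subtracted background within each array; the authors name dChip for later steps. The deposited table of the series holds the same intensity, rounded.
Control spots (4259) and outlier spots were left out, the 75th percentile of log2 intensity was subtracted array by array, and replicate spots were averaged. Tests required at least 0.5 of a probe's spots to be above background on 4 of 8 arrays. Groups were compared with limma 3.58.1 (lmFit, eBayes, no covariate) in R 4.3.3, with version 1.17.8 of data.table. Two-sided p values received a Benjamini-Hochberg adjustment across the 23678 tested probes, and calls were made below 0.1 (also counted below 0.05). Single values were compared by an exact permutation test over 70 choices of 4 from 8 arrays. The fit was tested on simulated data. The number of arrays limits the precision, and p values measure the spread between these rats.
The probe with the highest mean stood for a gene. Named were all members, per pathway list the genes called and the 2 with the smallest p, Gfap, and for Il6st and Stat3 the 5 gene symbols with the highest Pearson correlation. Hox genes, Mog, Pecam1 and T cell markers were chosen for mention once values were known. The 5′ minus 3′ difference is a centred median, taken over 1876 transcripts whose outermost probes lie 300 or more bases apart. The alternatives were normexp with offset 50, quantile normalization, the deposited series values, no dim-probe filter or one requiring all 8 arrays, eBayes with trend and robust options, array weights, a replicate block, a single probe for each gene name, the 5′ minus 3′ covariate and leaving out each array. Leaving out stressed replicates 2 and 3, with or without control replicate 2, was chosen after seeing the data. The members and lists were chosen with earlier results of these data known. A further gene that the naming rule picks is not reported here. The miRNA arrays and quantitative PCR were not analysed here.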

Additional observations from a re-analysis of the deposited data

Results flagged for a closer look

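Each group of 4 rats was checked for a rat whose gap to its nearest neighbour took up most of the range of the group, over 70 groups, of which chance alone would mark 3.5. The gap was 0.855 of the range for control replicate 2 in Lifr, 0.883 for the same rat in Osmr and 0.845 in Ptpn11. For stressed replicate 2 it was 0.866 in Osmr and 0.914 in Jak1, where that rat was the highest. The gap was 0.940 for stressed replicate 4 in Jak2, 0.868 for stressed replicate 3 in Il11ra1 and 0.866 for stressed replicate 1 in Socs4, and 0.830 for control replicate 1 in the sum of neuronal markers.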

How the results depend on the processing

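The 885 probes called at an adjusted p below 0.1 (limma; 74.0% higher in stressed rats) became 215 with normexp (88.4% higher), 1180 with quantile normalization (58.1% higher), 3010 with no filter on dim probes (85.2% higher), 11983 with array weights, 2389 with the 5′ minus 3′ covariate (48.3% higher), and 0 to 10036 when 1 array was left out, the highest without control replicate 2. Without stressed replicates 2 and 3 it was 0, and 6643 without control replicate 2 as well. At an adjusted p below 0.05 the counts were 113 on all arrays, 39 with normexp, 13 with no filter, 237 with the filter on all 8 arrays, 353 with a variance trend, 9638 with array weights, 666 with the covariate, 0 to 7654 with 1 array left out, and 0 and 3423 in the reduced sets. Of the 8 genes, 1 was called on all arrays, 0 with normexp, 2 with a variance trend (Stat3 at -0.24 joined), 5 with array weights, 3 with the covariate, 0 to 5 with 1 array left out, and 0 and 4 in the reduced sets.

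With the replicate block, 0 probes and 0 of the 8 genes passed, with 4292 probes at an unadjusted p below 0.05, and Jak1 stood at 0.43 (limma, adjusted p = 0.211). The deviations of rats with the same number correlated by 0.10, 0.12, -0.09 and 0.31 over probes, so the numbers were not taken as pairs.

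Jak1 lost its call at 0.40 with normexp, 0.29 with the covariate and 0.38 without stressed replicates 2 and 3. Calls were gained with array weights by Il6st (-0.36), Lifr (0.77), Socs3 (0.46) and Stat3 (-0.29), with the covariate by Il6st (-0.58), Osmr (0.89) and Cntfr (-0.37), and in the set without all 3 arrays by Lifr (0.85), Osmr (0.38) and Stat3 (-0.30). With 1 array left out, the differences ran from -0.50 to -0.34 for Il6st, 0.35 to 0.48 for Jak1, 0.26 to 0.80 for Lifr, 0.22 to 0.60 for Osmr, 0.27 to 0.48 for Socs3, -0.28 to -0.22 for Stat3, -0.11 to 0.02 for Jak2, -0.12 to 0.12 for Cntfr and -0.03 to 0.16 for Il6r. The sign turned for Lifr (-0.42) and Jak2 (0.14) with the covariate, and for Jak2 (0.017) without control replicate 1. It turned for Cntfr with normexp (0.012), array weights (0.090), without stressed replicate 1 (0.021) or control replicate 2 (0.12) and in the smallest set (0.025). For Il6r it turned with quantile normalization (-0.021), array weights (-0.038), without control replicate 2 (-0.031) and in the reduced sets (-0.047 and -0.17). Fewer arrays were fitted in the reduced sets, and the other causes were not tested. Osmr, not well above background on 1 of 8 arrays, is limited by its signal.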
